A study of Homo sapiens with 5 samples.

Results

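The MYOG and MYBPH locus was described as the window chr1:202980000-203160000 of the human genome build hg19, a stretch of 180 kb. All listed peaks that overlapped it were members. They numbered 111 of the 100703 peaks in all lists together. Of these, 18 of 11136 were MYF5 peaks in RH18, 52 of 46408 were regions of histone H3 acetylated at lysine 27 (H3K27ac) in RH18, and 41 of 43159 were H3K27ac regions in RD. RH18 and RD are human tumour cell lines derived from rhabdomyosarcoma without a PAX fusion gene (fusion-negative), a cancer whose cells resemble immature skeletal muscle. Both were grown in serum-containing DMEM with no treatment named, fixed in 1% formaldehyde for 12 minutes and profiled by chromatin immunoprecipitation and sequencing (ChIP-seq). The labels list 5 samples, with input DNA for both lines, and the 2 inputs were not analysed here. Each group was 1 library, so no value below has a replicate check and no difference between the lines could be tested. Intervals cover counting error only.

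Myogenin, the product of MYOG, is a basic helix-loop-helix transcription factor that drives myoblasts into differentiation. It acts after MYF5 and MYOD1, factors of the same family that mark and maintain muscle progenitors, and all of them bind DNA at E-boxes as partners of E proteins. MYBPH encodes myosin binding protein H, a component of the thick filament of skeletal muscle. H3K27ac marks active enhancers and promoters. In mouse, the Myog promoter is known to be bound at an E-box and at a site for MEF2 factors.

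MYOG was given as 203.052 to 203.055 Mb and MYBPH as 203.137 to 203.145 Mb, to the nearest 1 kb. Both lie on the minus strand in RefSeq (GRCh38.p14), so each gene starts at the upper end of its interval. In that annotation PPFIA4 is the coding gene next below MYOG, ADORA1 lies between MYOG and MYBPH, and CHI3L1 follows above. No hg19 annotation was used, so peaks are placed by these intervals alone.

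The promoters of both genes are shown because MYF5 peaks lay at the upper ends of both intervals. They are the 250 bases before each start, from RefSeq in GRCh38.p14, minus strand, at chr1:203086013-203086262 for MYOG and chr1:203175827-203176076 for MYBPH. These coordinates do not share a build with the peaks, and which bases lie under a peak was not determined. Capitals mark E-boxes (CANNTG) and the MEF2-like run TATTTAT, searched on both strands.
MYOG: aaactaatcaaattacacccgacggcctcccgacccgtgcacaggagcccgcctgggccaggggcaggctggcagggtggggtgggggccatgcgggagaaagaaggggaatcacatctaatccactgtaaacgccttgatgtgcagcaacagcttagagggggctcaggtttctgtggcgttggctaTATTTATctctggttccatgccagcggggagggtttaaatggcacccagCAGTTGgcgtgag
MYBPH: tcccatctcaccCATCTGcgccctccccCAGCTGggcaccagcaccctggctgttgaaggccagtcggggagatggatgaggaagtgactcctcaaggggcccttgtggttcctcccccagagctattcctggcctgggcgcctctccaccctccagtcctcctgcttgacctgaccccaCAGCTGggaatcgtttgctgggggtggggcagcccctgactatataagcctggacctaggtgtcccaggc

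With bases counted back from the start, the MYOG promoter held the MEF2-like run at -62 to -56 and 1 E-box, CAGTTG, at -13 to -8. The MYBPH promoter held 3 E-boxes, of which 2 read CAGCTG, at -222 to -217 and at -70 to -65, and the other CATCTG, at -238 to -233. Among 35116 RefSeq promoters of this length, 61.8% held CANNTG, 13.99% held CAGCTG (itself a CANNTG) and 4.60% held TATTTAT. A list of 27 other genes of the myogenic programme was also searched, and 15 had a promoter in the table. Of these 15, 12 (80%) held CANNTG and 7 (46.7%) held CAGCTG at any of their listed starts, namely MEF2C, MEF2D, MYBPC1, CDKN1A, CKM, CHRNA1 and TNNT2. They include transcription factors (MEF2C, MEF2D), a cell cycle inhibitor (CDKN1A), muscle creatine kinase (CKM) and the muscle acetylcholine receptor subunit CHRNA1. TATTTAT was in 0 of the 15. Some genes have several listed starts and were counted once, which favours a match. Such matches describe letters and are not measured binding.

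The locus was dense in peaks of all 3 kinds. The genome was divided into 16884 tiles of 180 kb, and 6 of them (0.0355%) held at least the 18 MYF5 peaks of the window. As many as the 52 RH18 H3K27ac regions were found in 6 tiles (0.0355%), and as many as the 41 RD regions in 12 (0.0711%). No tile reached all 3 counts at once. The mean tile held 0.66 MYF5 peaks, 2.75 RH18 regions and 2.56 RD regions. Tiles with no peak of a kind were included. Among the 5234 tiles with any MYF5 peak, 0.115% reached 18. The window was set around its genes and with results known, so these shares describe it and test nothing.

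**Figure D1:**
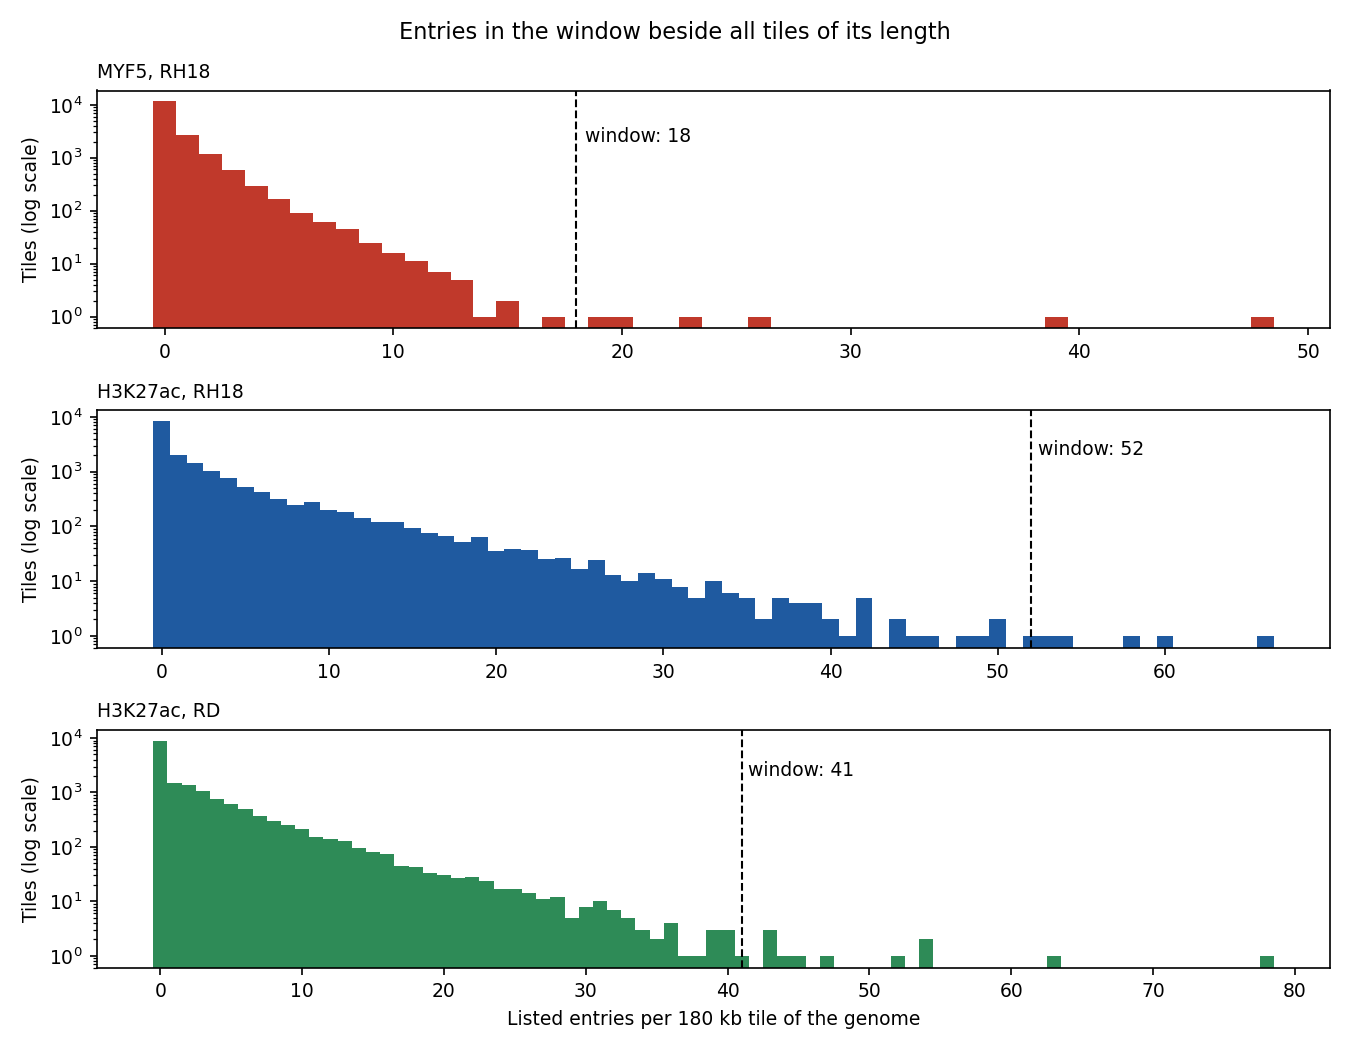
Number of 180 kb tiles of the genome (log scale) by the listed entries they hold, for MYF5 in RH18, H3K27ac in RH18 and H3K27ac in RD. Dashed lines mark the window, at 18, 52 and 41 entries, in the sparse upper tail of each list.

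By fold, median heights in the window were near those of the whole lists. Heights are given as the authors' deposited fold, a ratio over the local background of the peak caller at the summit, and as sequenced tags at the summit, recovered from fold and p-value. The median MYF5 fold was 10.5 (range 6.83 to 44.0) in the window and 11.2 in the whole list. The median RH18 H3K27ac fold was 15.9 in the window and 13.98 in the whole list, and the median RD H3K27ac fold was 7.81 in the window and 8.0 in the whole list. Median MYF5 tags were 40.5 in the window and 42 in the whole list. Median H3K27ac tags were lower in the window than in the whole list, at 48.5 beside 57 in RH18 and 66 beside 85 in RD. In RD, 10 of the 41 regions (24.4%, 12.4 to 40.3%) were among the top 10% of their list by fold. In RH18 this held for 4 of 52 regions (7.69%, 2.14 to 18.5%), and of the MYF5 peaks for 3 of 18 (16.7%, 3.58 to 41.4%). By tags the top 10% held 9 of the 41 RD regions (22.0%, 10.6 to 37.6%), 8 of the 52 RH18 regions (15.4%, 6.88 to 28.1%) and 1 of the 18 MYF5 peaks (5.56%, 0.141 to 27.3%). The RH18 regions were thus below 10% by fold and above it by tags, and the MYF5 peaks the other way round. The RH18 and MYF5 intervals all contained 10%, so these shares could not be told from those of the lists. Both RD intervals lay above 10%. However, neighbouring peaks are not independent and the window was set with results known, so these intervals test nothing. Folds of the lines are not on a common scale, since each sequenced tag added 0.832 units of pileup to RH18 H3K27ac heights and 0.273 units to RD heights.

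H3K27ac covered 52.8 kb (29.3%) of the window in RH18 and 33.3 kb (18.5%) in RD. Over the whole lists it covered 32.5 Mb in RH18 and 21.2 Mb in RD, so RH18 had the larger coverage there too. Both lines covered 27.5 kb in common, RH18 alone 25.3 kb and RD alone 5.80 kb. Of the RH18 regions, 28 of 52 (53.8%, 95% Clopper-Pearson interval 39.5 to 67.8%) overlapped an RD region, where 45.1% of all RH18 regions did. Of the RD regions, 33 of 41 (80.5%, 65.1 to 91.2%) overlapped an RH18 region, where 60.0% of all RD regions did. The RD interval lay above its whole-list share and the RH18 interval contained its own, but neighbouring regions are not independent. RH18 regions also covered 29.3% of the window, and in so dense a window any region is likelier to overlap another by position. The part of this density in these shares was not tested. The lists also ended at different p-values, with lowest −log10 p-values of 7.09 in RH18 and 5.00 in RD, so an unlisted region is no measured absence. Regions of the window that were unshared were lower, with a median of 28.0 tags in RH18 and 38.5 in RD. Shared regions had 78.5 tags in RH18 and 106 in RD. Whole-list medians of shared and unshared regions are not given here.

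Joining all entries within 5 kb gave 8 blocks, numbered from low to high position. Block 2, a 35.8 kb stretch below MYOG on the side of PPFIA4, was covered over 20.2 kb in RH18 and 8.67 kb in RD. The MYOG block spanned 10.97 kb and was covered over 7.36 kb in RH18 and 8.74 kb in RD. Block 6, 29.3 kb between MYOG and MYBPH, was covered over 14.1 kb in RH18 and 7.72 kb in RD. Whether blocks 2 and 6 lie inside PPFIA4 or ADORA1 was not determined, as no hg19 annotation was used. The MYBPH block spanned 13.1 kb and was covered over 8.62 kb in RH18 and 6.60 kb in RD. RD thus had the larger coverage at MYOG and RH18 at MYBPH and in both large blocks without these genes. The order at MYOG rested on weak RD regions, chr1:203051679-203052189, chr1:203052420-203053256 and chr1:203061749-203061968 (511, 837 and 220 bp). Their −log10 q-values were 6.40, 7.89 and 9.88, where all RH18 regions of the block had 12.8 or more. Without them RD would not have the larger coverage at MYOG. RH18 also had the larger coverage over the whole lists. The other 4 blocks were of at most 1.08 kb in either line, and block 8, above MYBPH, had no RD region.

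**Figure D2:**
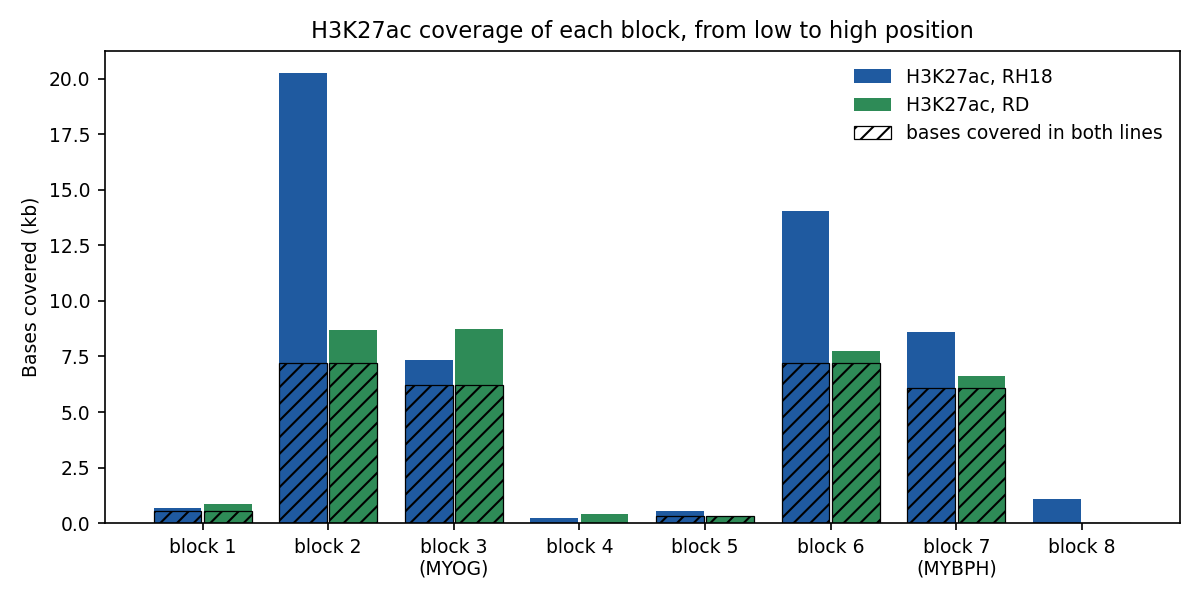
Bases covered by H3K27ac (kb) in each of the 8 blocks of the window, RH18 left and RD right, with the bases covered in both lines hatched. The MYOG block has 7.36 kb in RH18 and 8.74 kb in RD, of which 6.20 kb are common.

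**Figure D3:**
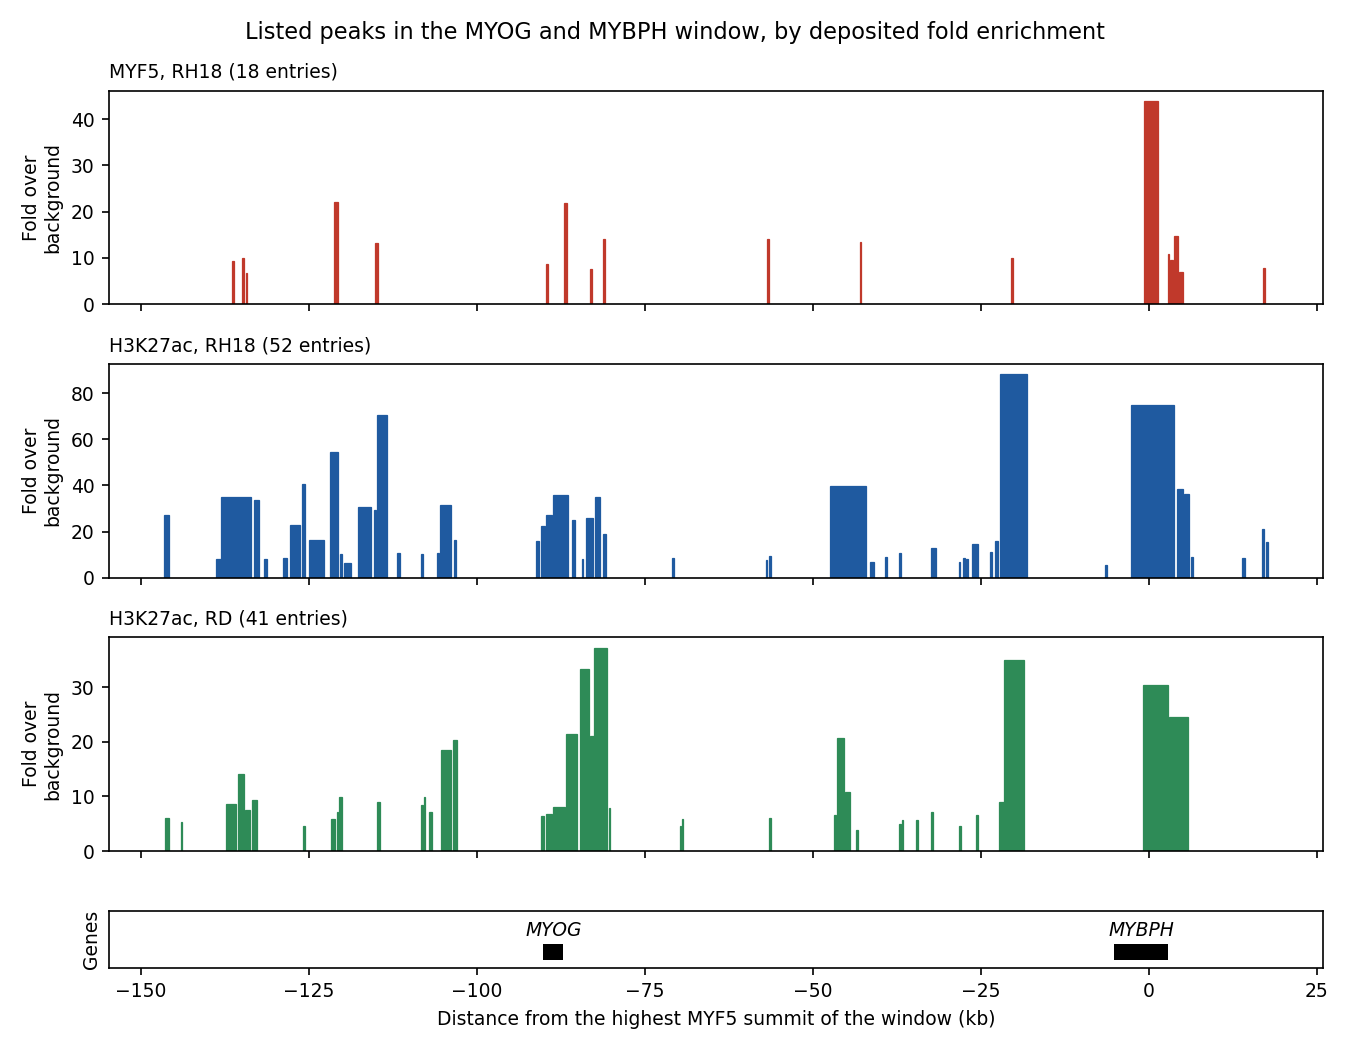
Every listed peak of the window by its distance from the highest MYF5 summit (kb, x axis) and its deposited fold (y axis, own scale in each panel), drawn at its true width, with the gene intervals at the bottom. MYF5 reaches 44.0 at MYBPH and 21.9 at MYOG. By fold, H3K27ac is highest between the genes in RH18 (88.3) and beside MYOG in RD (37.3).

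At MYOG, 4 MYF5 peaks spread over 8.53 kb, from inside the gene interval to 6.10 kb above its upper end. The tallest, chr1:203055078-203055602, had a fold of 21.9 and 66 tags (Poisson interval 51.0 to 84.0), rank 1024 of 11136 by fold. Its summit at 203055384 lay 0.384 kb above the given upper end of MYOG, the end of the gene start. That end is given to the nearest 1 kb, so the exact distance is not determined. A second peak at chr1:203052436-203052697 (fold 8.61, 25 tags) lay inside the gene interval. The other peaks lay further up, at chr1:203058905-203059206 (fold 7.62, 24 tags) and chr1:203060965-203061264 (fold 14.1, 42 tags). The start of MYOG thus had the highest MYF5 peak of its block by fold and tags.

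All 4 of these MYF5 summits were inside RH18 H3K27ac regions. The summit at the MYOG start lay in the RH18 region chr1:203053401-203055677 (fold 36.0, 215 tags). In RD the same summit fell into a gap of 253 bp. Below that gap lay chr1:203053470-203055186, with a fold of 8.0 and 196 tags over a local background 9.10 times the lowest of the list. Above it lay chr1:203055440-203057104, with a fold of 21.4 and 192 tags. The MYF5 summit at 203058975 also fell into an RD gap, of 155 bp. The regions on its sides had folds of 33.4 and 21.2 and rested on 275 and 229 RD tags. Acetylation summits of the lines near the upper end of MYOG were 12 bp apart, at 203054941 in RH18 and 203054953 in RD. Over the window, 11 of the 28 shared RH18 regions (39.3%, where 55.4% of all shared RH18 regions did) and 11 of the 33 shared RD regions (33.3%, where 44.7% did) had their summit within 50 bp of a summit of the other line.

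Above MYOG the lines were acetylated over the same stretch with a different order of heights within each list. By fold, the highest RD region of the whole window was chr1:203059593-203061561 (fold 37.3, 260 tags), rank 69 of 43159, and it held the MYF5 summit at 203061100. In RH18 the same bases held chr1:203059668-203060478 (fold 34.8, 96 tags) and chr1:203060851-203061322 (fold 18.7, 51 tags). The RD region chr1:203057530-203058877, further down in the same block, ranked 198 by fold (33.4) and had the most tags of the RD regions in the window (275), while the RH18 regions over it had folds of 8.07 and 25.8. Among the 9 RH18 regions of the MYOG block, 0 were among the top 10% of their list by fold and 1 by tags. Among the 8 RD regions, 4 were by fold and 5 by tags.

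At MYBPH, 5 MYF5 peaks lay within 4.70 kb. The peak chr1:203141412-203143549 was the tallest and widest of the window, with a fold of 44.0, 134 tags (112 to 159) and a width of 2138 bp. It ranked 107 of 11136, and its summit at 203142116 lay inside the MYBPH interval, 2.88 kb below the upper end. A smaller peak at chr1:203144940-203145142 (fold 10.9, 32 tags) had its summit 0.031 kb above that upper end. As gene ends are given to the nearest 1 kb, the side of the end on which this summit lies is not determined. The other 3 summits followed 0.642, 1.07 and 1.81 kb above it, with folds of 9.58, 14.8 and 6.99 and with 28, 44 and 41 tags. So the tallest MYF5 peak lay within the MYBPH interval, and the gene's upper end had lower peaks.

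The tallest MYF5 peak was acetylated in both lines. In RH18 it lay in chr1:203139484-203145916 (fold 75.0, 269 tags), a region of 6433 bp that held 3 MYF5 summits and ranked 692 of 46408. In RD it lay in chr1:203141290-203145020 (fold 30.4, 221 tags), a region of 3731 bp, rank 369 of 43159. The acetylation summits of the lines were 7 bp apart, and lay 356 bp (RH18) and 363 bp (RD) above the MYF5 summit. The MYF5 summit at 203145031, next to the upper end of MYBPH, fell into an RD gap of 103 bp, and the one at 203146065 into an RH18 gap of 415 bp. The RD region that followed above, chr1:203145124-203147992 (fold 24.6, 191 tags), held 3 MYF5 summits. No H3K27ac region of either line covered the lowest part of the MYBPH interval, between 203.137 Mb and position 203139484 in RH18 or 203141290 in RD.

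**Figure D4:**
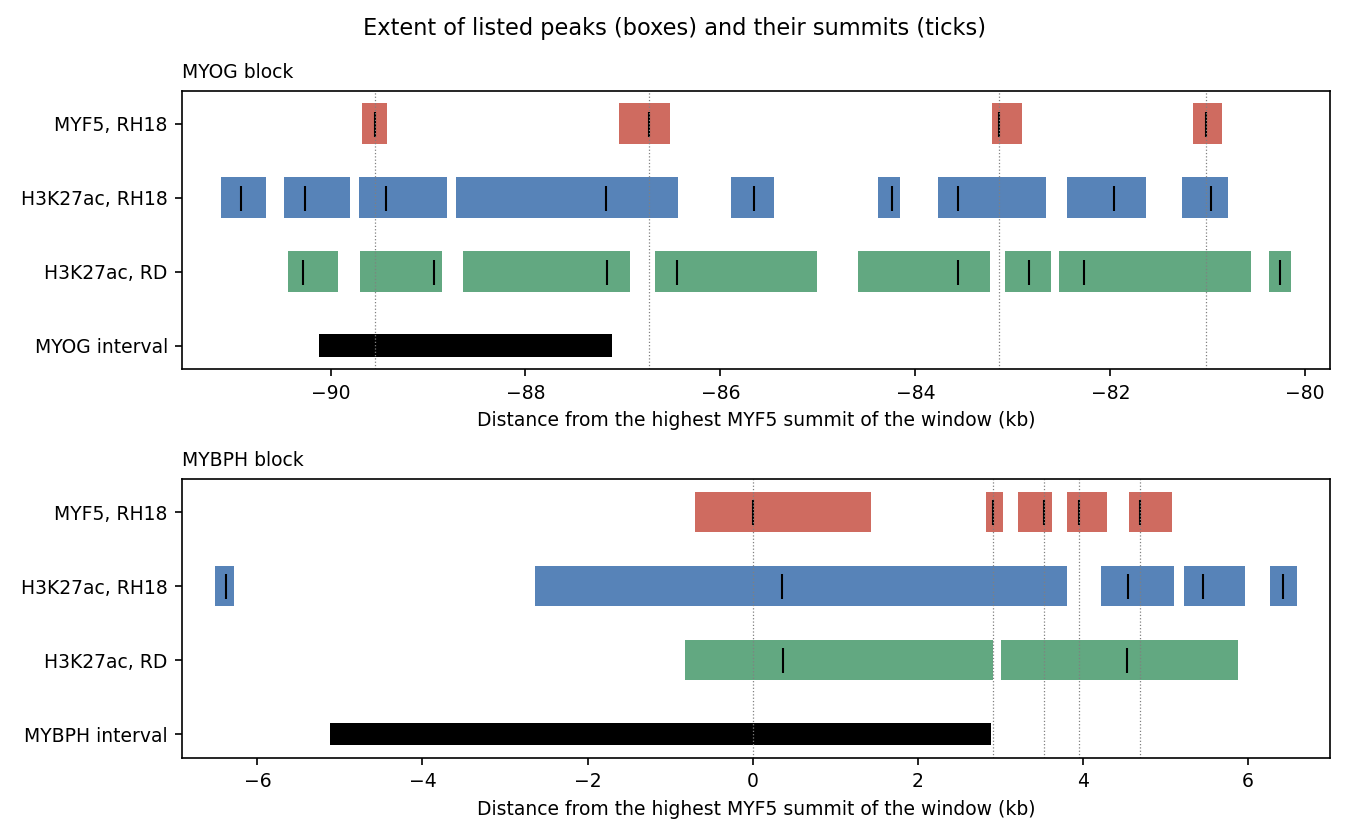
Extent of each listed peak (boxes) and its summit (ticks) in the MYOG and MYBPH blocks, by distance from the highest MYF5 summit (kb), with MYF5 summits as dotted lines. The MYF5 summit at the upper end of MYOG is inside an RH18 region and in a 253 bp gap of RD, and the 2138 bp peak at MYBPH is inside regions of both lines.

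Between and beside the genes, 9 more MYF5 peaks were listed. Block 2 held 5 of them, the tallest at chr1:203020866-203021507 (fold 22.2, 71 tags), inside the RH18 region chr1:203020343-203021438 (fold 54.7, 196 tags). This MYF5 summit was also inside an RD region of fold 7.20 and 106 tags, over a local background 4.94 times the lowest of the list. The peak chr1:203026951-203027381 (fold 13.3, 43 tags) sat in an RH18 gap of 122 bp, beside chr1:203027246-203028776. That region was the third highest of the window by fold in RH18 (fold 70.3, 201 tags), though 6 RH18 regions of the window had more tags, and its RD counterpart had a fold of 8.91 and 61 tags, with the summits 7 bp apart. The other 3 peaks of this block had folds of 6.83 to 10.0, and their summits lay in the RH18 region chr1:203004125-203008577 (fold 35.0, 209 tags).

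By fold, block 6 held the highest RH18 region of the window, with 2 MYF5 peaks in the block. The RH18 region chr1:203119920-203123971 had a fold of 88.3, rank 287 of 46408, and 269 tags, as many as the RH18 region over the tallest MYF5 peak at MYBPH. Its RD counterpart chr1:203120628-203123471 had a fold of 35.1 and 238 tags, rank 129 of 43159. The MYF5 peak within both had a fold of 10.0 and 32 tags. The other MYF5 peak of the block, chr1:203099105-203099330 (fold 13.4, 47 tags), lay inside the 5431 bp RH18 region chr1:203094659-203100089 and 374 bp from an RD region. A solitary MYF5 peak at chr1:203085266-203085574 (fold 14.1, 54 tags) sat in a 210 bp gap between weak RH18 regions of folds 7.46 and 9.45. The last, chr1:203159120-203159374 (fold 7.88, 29 tags), sat in an RH18 gap of 195 bp and 11323 bp from the nearest RD region. It was the single MYF5 summit of the window over 500 bp from RD acetylation.

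Over the window, 14 of 18 MYF5 summits (77.8%, 52.4 to 93.6%) lay inside RH18 H3K27ac regions, where 55.2% of all MYF5 summits did. The remaining 4 sat in RH18 gaps with regions ending within 500 bp on both sides, so that 18 of 18 (100%, 81.5 to 100%) were inside or within 500 bp of acetylation, where 72.1% of all were. Such gaps held 22.2% (6.41 to 47.6%) of the window's summits and 4.81% of all. Inside RD regions lay 10 of 18 (55.6%, 30.8 to 78.5%), where 39.9% of all summits did, and within 500 bp 17 of 18 (94.4%, 72.7 to 99.9%), where 62.9% did. RD gaps of this kind held 4 summits (22.2%), where 10.6% of all did. The RH18 gaps and the RD gaps took different summits, and 8 of 18 (44.4%) were in a gap of at least 1 line, where 13.9% of all were. Of all summits, 536 were in RH18 gaps, 1183 in RD gaps and 1551 in a gap of at least 1 line. Most summits in RH18 gaps were thus outside RD gaps over the whole list too, and 4 summits show little. All 4 summits in RD gaps were inside RH18 regions, and the whole-list share for this is not given here. Of the 4 in RH18 gaps, 1 was inside an RD region, 2 were within 500 bp of one and 1 was farther away. Regions of both lines held 9 summits (50%, 26.0 to 74.0%), where 33.5% of all were so placed. RH18 regions alone held 5 (27.8%, where 21.7% of all were), RD regions alone 1 (5.56%, where 6.38% were) and regions of neither line 3 (16.7%, where 38.4% were). H3K27ac covered 29.3% of the window in RH18 and 18.5% in RD, and any position in so dense a window is likelier to lie in or near a region. The part of this density in these shares was not tested.

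**Figure D5:**
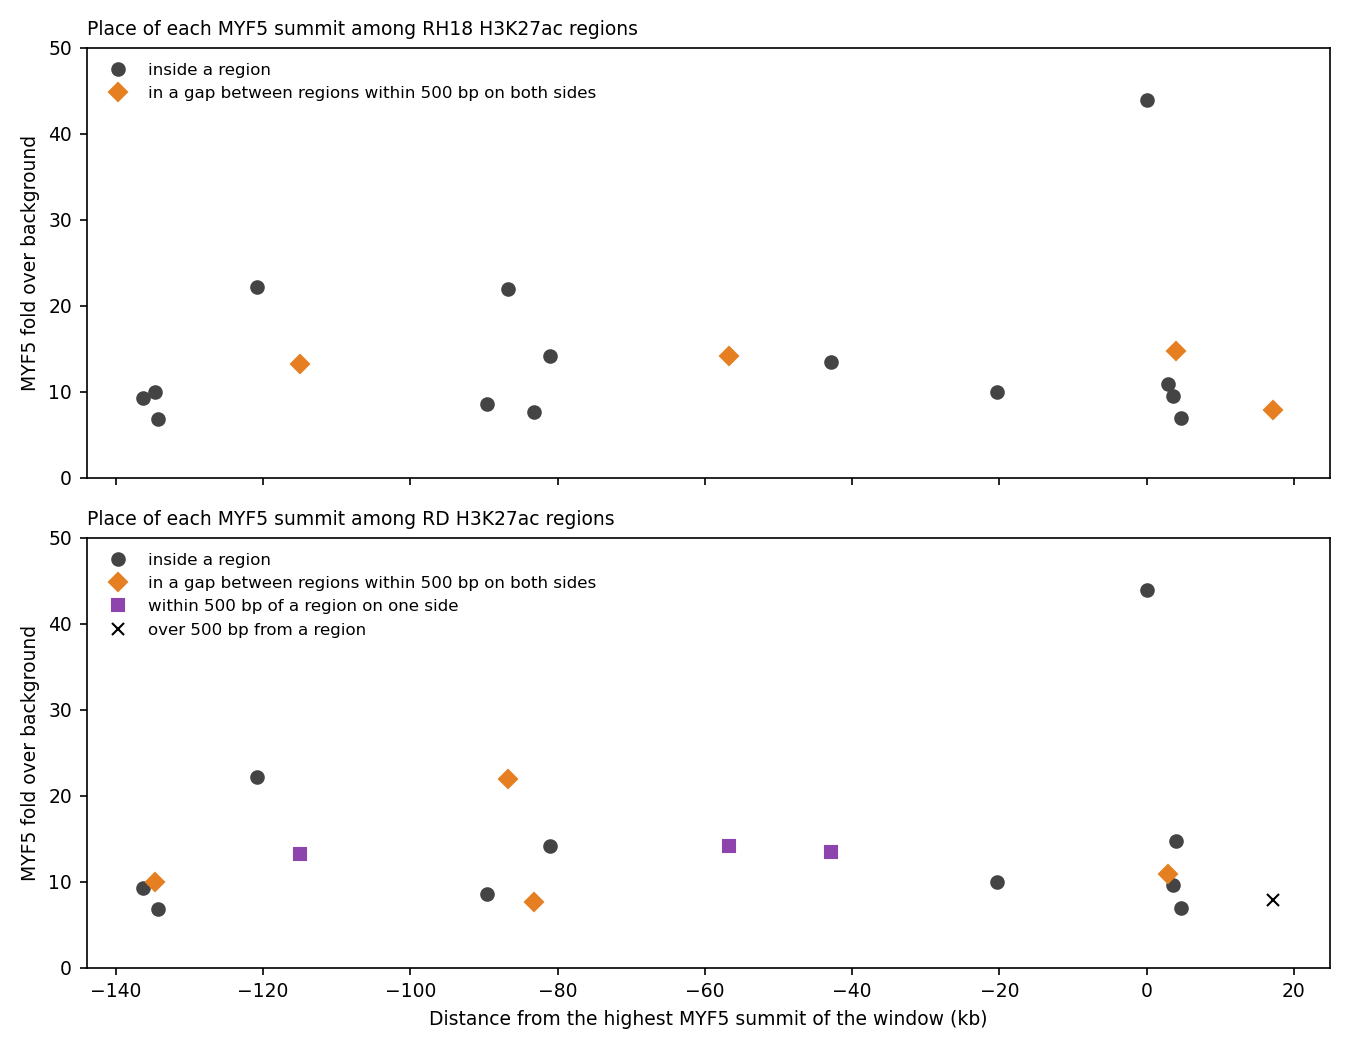
Deposited MYF5 fold (y axis) of the 18 MYF5 peaks by distance from the tallest (kb), marked by the place of the summit among RH18 (top) and RD (bottom) H3K27ac regions. The 4 summits in RH18 gaps and the 4 in RD gaps are at different positions, and most RH18-gap summits of the whole list are also outside RD gaps. The tallest peak is inside regions of both lines.

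Seen from the acetylated regions, 10 of 52 in RH18 (19.2%, 9.63 to 32.5%) held a MYF5 summit, where 12.0% of all RH18 regions did. In RD it was 8 of 41 (19.5%, 8.82 to 34.9%), where 9.71% did. RH18 regions with a MYF5 summit had a median fold of 37.2 and 206.5 tags, and those without had 10.9 and 40.0 tags. RD regions with a summit had a median fold of 16.6 and 148.5 tags, and those without had 7.15 and 61.0. Regions with a summit were also wider, with medians of 1690 bp in RH18 and 1730.5 bp in RD, beside 412.5 bp in RH18 and 411 bp in RD for the others, and a wide region has more room for a summit. The part of width in these values was not tested. Whole-list medians of regions with and without a summit are not given here, so the contrast is not shown to be particular to the window.

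When H3K27ac regions within 12.5 kb were joined into domains and ranked within their list by fold times width, the locus formed 2 domains in RH18 and 4 in RD. The RH18 domain with MYBPH ran from 203085144 to 203185145, beyond the window, held 11 MYF5 summits and ranked 28 of 18842. The RH18 domain with MYOG ran from 202995635 to 203071444, held 9 and ranked 82. In RD the MYOG domain, 203051679 to 203072827, ranked 79 of 16671, and the MYBPH domain, 203141290 to 203147992, ranked 86. The ranks depend on the joining distance and on the measure ranked: the best rank in the window was 90 in RH18 and 35 in RD at 5 kb, and 12 in RH18 and 4 in RD at 25 kb. Ranked by covered bases, the best domain was 32 in RH18 and 142 in RD. Ranks hold within a list and show no change between lines.

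Local background under the peaks of the window had a median of 1.08 times the lowest of its list for MYF5, 1.16 for RH18 H3K27ac and 1.77 for RD H3K27ac. The whole-list medians were 1.27 for MYF5, 1.52 for RH18 H3K27ac and 2.34 for RD H3K27ac. Background in the window was 4 or more times the lowest at 0 of 18 MYF5 peaks, beside 4.91% of the whole MYF5 list. This held at 1 of 52 RH18 regions (1.92%), beside 10.1% of the whole RH18 list. In RD it held at 8 of 41 regions (19.5%), beside 31.9% of the whole RD list. A control antibody was not analysed here, and unspecific signal of the MYF5 antibody cannot be told apart from binding. RNA and MYF5 binding in RD were not analysed here.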

How the data were processed

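ChIP-seq peak lists of 3 libraries (RH18 MYF5, RH18 H3K27ac, RD H3K27ac) were used, 1 list per library. The submitters' processing notes name hg19, MACS2 2.1.0 and BWA 0.7.10, without role, control or threshold. The deposited columns hold a summit position, a fold (a ratio over local background), p-values and q-values as −log10, and a score, which was not used. Peak numbers skip 39, 70 and 49 entries in these lists, so entries were removed before deposit.

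Total reads are not given in the sources used here. Tags and background at each summit were recovered from the MACS2 formulas, fold being (pileup + 1) over (background + 1) and p the Poisson tail. A tag was worth 0.658, 0.832 and 0.273 pileup units in these lists. Tags were whole within 0.1 for 100.0% of the entries of each list, although 30.5%, 14.0% and 54.9% had more than 1 solution, resolved by the nearest whole tag. The step was tested on simulated data. Reads are not independent molecules, so intervals cover counting error only.

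Peaks overlapped if they shared 1 bp or more, and MYF5 peaks were placed by summit. No group had replicates, so no test was run. All 18 MYF5 peaks are described. H3K27ac regions are named where they hold or flank a MYF5 summit, lie at a gene start or are among the 3 highest by fold, and others are summarised. Members, lists and motifs were chosen with earlier results of these data known. The E-box search at MYF5 summits, peak counts at other myogenic genes and protein sequences were not analysed here. Software was Python 3.11.15 with pandas 2.3.3, numpy 2.4.6, matplotlib 3.10.9 and scipy 1.17.1.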

Additional observations from a re-analysis of the deposited data

How the results depend on the processing

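Of 40 alternatives run, 18 values stayed within 1.5 times (counts and ranks) or within their interval (shares), and 22 moved. No paired analysis was possible because each group held 1 library, and leaving out a library leaves no value. Of the counts in the window, the 5000 strongest MYF5 entries gave 8 peaks, and the 20000 strongest regions 23 in RH18 and 15 in RD. A −log10 q of at least 10 gave 25 RD regions, and joining within 1000 bp gave 20 in RH18 and 19 in RD. Coverage with 50 kb added on each side was 21.6% in RH18 and 15.1% in RD, and RD coverage at that q was 15.6%. These coverage values counted as moved although they stayed within 1.5 times of the main values, and no interval for coverage is given here. The best domain rank with joining at 5000 bp was 90 in RH18 and 35 in RD, at 25000 bp it was 12 in RH18 and 4 in RD, and RD ranked by covered bases gave 142. Where 50% of both regions had to overlap, 28.8% of RH18 and 36.6% of RD regions were shared. Within 500 bp 71.2% of RH18 regions had an RD region, and at a −log10 q of at least 10 in every list 96% of RD regions had an RH18 one. For MYF5 summits, any overlap of the peaks gave 100% for RH18 and 88.9% for RD, and a distance of 500 bp gave 100% for RH18 and 94.4% for RD. Stricter lists hold fewer entries by construction, and for the other moved values the cause was not tested. The alternatives with tiles started later and with the MYOG and MYBPH blocks alone were chosen after seeing the data and moved no value. The E-box alternative was not run. Unequal list thresholds and unknown total depth limit what an unshared region shows.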
